A study of Homo sapiens with 14 samples.

Results

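The 40 genes described here are epithelial and mesenchymal genes together with genes of the transforming growth factor beta (TGF-beta) response. They were chosen by gene symbol, and each symbol matched 1 of the 57756 genes in the deposited tables. Their transcripts were measured by RNA sequencing in A549 cells, an adherent human lung carcinoma line. The study examined how overexpressed U2AF1, wild type or carrying the cancer mutation S34F, alters splicing. U2AF1 is the small subunit of the factor that recognizes the 3′ end of introns. The 14 libraries fell into 7 groups of 2, numbered replicate 2 and replicate 1. In 4 groups, cells were infected with a virus carrying U2AF1 after knockdown of U2AF1 by siRNA. These groups expressed v1 S34F, v3 S34F, v1 wild type or v3 wild type, where v1 and v3 are isoforms of U2AF1. A further group carried an empty vector after the same knockdown (called knockdown below). Another carried that vector and received a control siRNA (control siRNA), and the last was untreated A549. The constructs and siRNAs are known only by these names. Whether the replicates are independent cultures is not stated, and the p-values below therefore describe the spread of these libraries, part or all of which may be technical.

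Epithelial cells are held together by E-cadherin, tight junctions and desmosomes and contain keratin filaments. In epithelial-mesenchymal transition these features give way to N-cadherin and vimentin, under transcription factors such as ZEB1, ZEB2 and SNAI2 that repress the E-cadherin gene CDH1. TGF-beta is a classical inducer of this transition in A549 cells. It binds the type II receptor TGFBR2, which activates the type I receptor TGFBR1, and SMAD proteins then carry the signal to target genes such as TGFBI. The secreted proteins CTGF and CYR61 are induced by TGF-beta and by the Hippo pathway effector YAP, which acts through TEAD factors.

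Expression is given as FPKM (fragments mapped to a transcript, scaled by its length and by sequencing depth), so levels can be compared between genes per length. Of the 40 genes, 36 had a mean of at least 1 FPKM over the 14 libraries and were tested. The 4 others were at the bottom of the range: the epithelial splicing regulators ESRP1 and ESRP2 reached at most 0.578 and 0.306 FPKM, the collagenase MMP1 at most 0.197 FPKM and the transcription factor SNAI2 at most 1.21 FPKM. Relative depth ran between 0.802, in v1 S34F replicate 2, and 1.20, and replicates correlated at 0.965 to 0.982 across genes. A single isoform held 33.1% of the summed FPKM in v1 S34F replicate 2 (AL132768.1) and 8.81% in knockdown replicate 1 (MIR1260B). In every other library the top isoform held at most 1.06%. The v1 S34F and v3 S34F replicate 2 libraries stood apart on the first principal component, at 48.4 and 38.7 against 15.1 or less in the other libraries. U2AF1 itself had 28.9 and 16.2 FPKM in knockdown cells against 119 and 117 FPKM in control siRNA cells, and between 2114 and 3852 FPKM in the 8 libraries with a U2AF1 construct, so that these cells held far more U2AF1 transcript than normal. FPKM cannot tell the construct from the endogenous gene. The A549 genes AKR1B10 and ALDH1A1 were abundant, and 6 of the 9 lung epithelium and A549 markers averaged at least 1 FPKM. That list also holds KRT8, KRT18 and EPCAM, which reached this mean. Most of its remaining genes, SFTPB, SFTPC, NKX2-1 and AKR1C1, did not. Endothelial markers summed to at most 0.25 FPKM. Of the 6 leukocyte markers, PTPRC, CD3E and LYZ were each below 1 FPKM in every library, whereas 2 averaged at least 1 FPKM. The leukocyte list summed to between 16.0 and 62.4 FPKM. The fibroblast list, with 2 of 8 genes at that mean, summed to between 8.53 and 16.3 FPKM. In such bulk samples fewer expressing cells and less RNA per cell cannot be told apart.

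The cells had a mixed profile of epithelial and mesenchymal transcripts in all 7 groups. The simple epithelial keratins KRT7, KRT8 and KRT18 averaged 1447, 1416 and 1343 FPKM over the 14 libraries, and vimentin (VIM) averaged 599 FPKM. The tight junction scaffold TJP1 averaged 92.5 FPKM, claudin 1 (CLDN1) 51.0 FPKM and occludin (OCLN) 15.2 FPKM, whereas the epithelial adhesion molecule EPCAM averaged 4.01 FPKM. E-cadherin (CDH1) and N-cadherin (CDH2) averaged 22.05 and 17.3 FPKM. Among the transcription factors, ZEB1 was at 13.6 FPKM and ZEB2 at 3.65 FPKM. The ligands TGFB1 and TGFB2 averaged 37.4 and 47.4 FPKM, above the receptors TGFBR2 and TGFBR1 at 22.1 and 14.9 FPKM. Integrin beta 1 (ITGB1), the common partner of several alpha subunits, averaged 521 FPKM, against 14.2 FPKM for its fibronectin-binding partner ITGA5 and 49.9 FPKM for ITGAV. The KRT8 and KRT18 loci overlap in the files, as do COL4A1 and COL4A2, and strandedness is not given in the sources used here, so reads in the shared stretches may have been counted for either gene.

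Both TGF-beta receptors and the TGF-beta-induced matrix protein TGFBI were lower after knockdown of U2AF1. In knockdown cells TGFBR2 stood at 39.0% of its level in control siRNA cells, TGFBR1 at 43.5% and TGFBI at 38.6%. The urokinase gene PLAU, whose product activates plasminogen, was at 44.4% and ITGA5 at 62.0%. These were the 5 of 36 tested members called at an adjusted p under 0.05 (limma on log2(FPKM + 1), Benjamini-Hochberg over all 14233 genes), and all 5 fell, whereas 2.85% of all genes were called and 2.06% were called lower. The median log2 change of the 36 was -0.16, against -0.01 over all genes tested.

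TGFBR2 (ENSG00000163513, chr3:30647994-30735634, GRCh37) had 18.0 and 14.7 FPKM in replicates 2 and 1 of the knockdown, against 36.3 and 47.7 FPKM in control siRNA cells. The log2 change was -1.30 (standard error 0.23, limma adjusted p = 0.0189). Both knockdown values lay below both control values, and the untreated cells, at 31.7 and 37.9 FPKM, were also above the knockdown. TGFBR1 (ENSG00000106799, chr9:101866320-101916474) had 11.3 and 8.56 FPKM in knockdown cells, against 20.9 and 24.7 FPKM in control siRNA cells (log2 change -1.13, standard error 0.21, limma adjusted p = 0.0237). The type I receptor was thus separated from its controls in the same way as the type II receptor. Of the ligands, TGFB1 differed by -0.16 and TGFB2 by 0.22 on the log2 scale between knockdown and control siRNA cells, and neither passed the test. The inhibitory SMAD7, a TGF-beta target that limits receptor signalling, differed by -0.32 and did not pass either.

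TGFBI (ENSG00000120708, chr5:135364584-135399507) had 176 and 190 FPKM in knockdown cells, against 484 and 465 FPKM in control siRNA cells. Its log2 change of -1.37 (standard error 0.19, limma adjusted p = 0.0087) was the largest among the members that passed. PLAU (ENSG00000122861, chr10:75668935-75677255) had 35.7 and 43.7 FPKM in knockdown cells, against 84.2 and 94.8 FPKM in control siRNA cells (log2 change -1.16, standard error 0.25, limma adjusted p = 0.0365). ITGA5 (ENSG00000161638, chr12:54789045-54813244) had 10.6 and 11.2 FPKM in knockdown cells, against 18.4 and 16.7 FPKM in control siRNA cells (log2 change -0.64, standard error 0.14, limma adjusted p = 0.0408). In all 3 genes the knockdown libraries lay below the control siRNA libraries and below the untreated libraries, which had 496 and 388 FPKM for TGFBI, 70.4 and 47.2 FPKM for PLAU and 11.6 and 13.6 FPKM for ITGA5. For PLAU and ITGA5 the untreated cells themselves were below the control siRNA cells.

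Among the collagens 1 gene differed by more than the receptors. COL5A1, a collagen of fibrils, had 8.32 and 4.07 FPKM in knockdown cells, against 34.6 and 14.04 FPKM in control siRNA cells. Its log2 change of -1.75 was the largest of all 36 members, yet it was not called (limma adjusted p = 0.141). Replicate 2 was above replicate 1 in all 7 groups, and with the replicate number as a block COL5A1 was called (adjusted p = 0.000468). In the same blocked fit CYR61 (log2 change 0.75, adjusted p = 0.101 without the block) was called higher at 0.00565. Also called lower only with the block were KRT7 (-0.52, 0.108 without and 0.00502 with it), the urokinase receptor PLAUR (-0.41, 0.243 and 0.0482) and the metalloproteinase inhibitor TIMP2 (-0.37, 0.137 and 0.0430). The block raised the members called to 10. The gelatinase MMP2 differed by -0.72 and passed in neither fit.

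The calls after knockdown rested on few libraries. Without control siRNA replicate 2 or knockdown replicate 2 none of the 36 members passed, without replicate 1 of either group 1 passed, and without any 1 of the 4 wild-type libraries, which help to set the spread, 3 passed. Over 22 alternatives the log2 change of TGFBR2 stayed between -1.50 and -1.11 and that of TGFBI between -1.45 and -1.32. Mitochondrially encoded transcripts of 15 genes summed to 40304 and 44392 FPKM in the 2 knockdown libraries. In the 2 control siRNA libraries they summed to 20080 and 40126 FPKM. The higher control siRNA value was thus close to the knockdown values, and the lower stood apart. The part of these transcripts in the results was not tested.

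**Figure D1:**
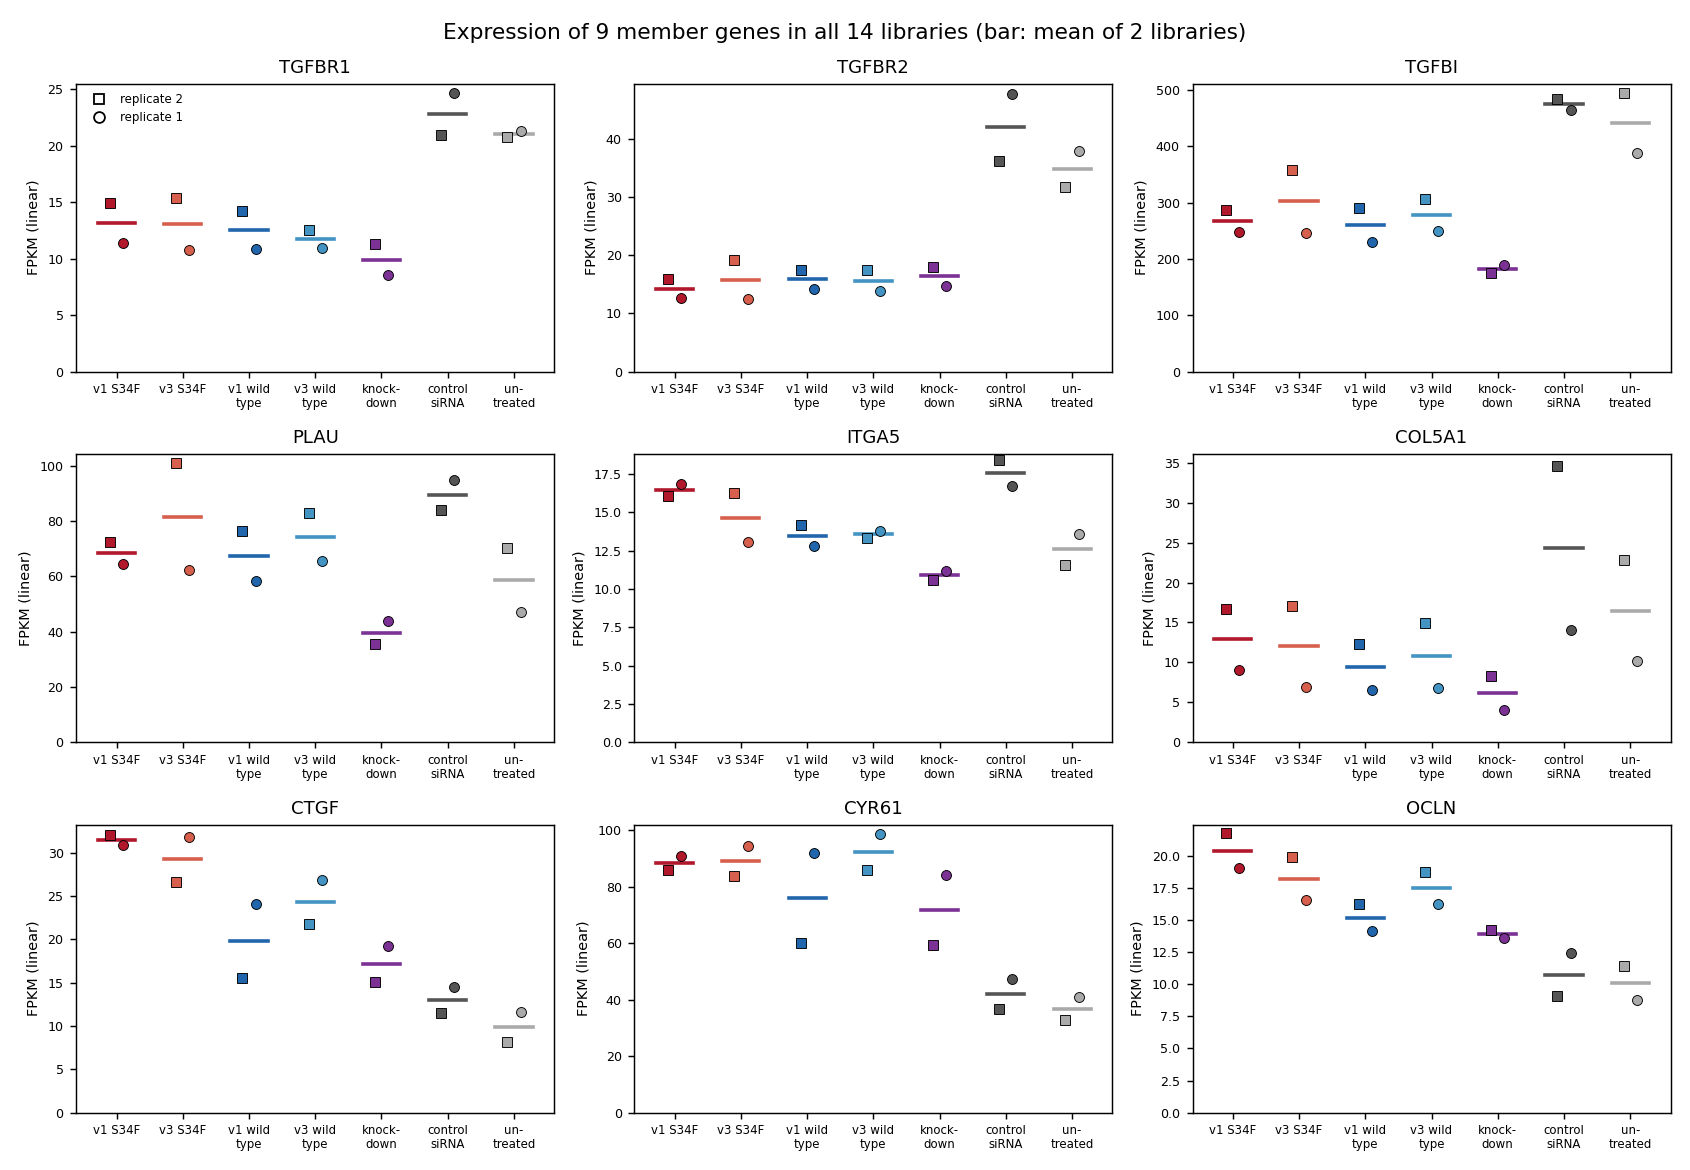
FPKM of 9 genes (linear axes starting at 0) in the 7 groups, with squares for replicate 2, circles for replicate 1 and a bar for the mean of the 2 libraries. TGFBR1, TGFBR2 and TGFBI are lower, and CTGF, CYR61 and OCLN higher, in all 10 libraries with siRNA against U2AF1 than in the control siRNA and untreated libraries.

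Re-expression of wild-type U2AF1 was compared with the knockdown to ask which of these changes it reversed. None of the 36 tested members was called in wild-type against knockdown cells by limma, while 1.43% of all genes were (1.04% higher), and 5 members had an unadjusted p under 0.05, against 15.8% of all genes. PLAU had 76.4 and 58.3 FPKM with v1 wild type and 82.9 and 65.6 FPKM with v3 wild type, against 35.7 and 43.7 FPKM in knockdown cells. All 4 wild-type libraries were above both knockdown libraries, and the log2 change was 0.81 (standard error 0.22, limma adjusted p = 0.0975, and 0.0224 with the replicate block). TGFBI had 290 and 231 FPKM with v1 wild type and 307 and 250 FPKM with v3 wild type, against 176 and 190 FPKM in knockdown cells, again without overlap (log2 change 0.55, limma adjusted p = 0.143, and 0.0192 with the block). COL5A1 (0.62, 0.605 and 0.0139) and KRT7 (0.41, 0.176 and 0.0100) were likewise called only with the block, which brought the count to 4 members, all higher with wild-type U2AF1. KRT19 (0.43), ZEB2 (0.34), CTGF (0.33) and ZEB1 (-0.32) came next in size on the log2 scale and passed in neither fit.

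TGFBR2 did not follow this pattern. It had 17.5 and 14.2 FPKM with v1 wild type and 17.4 and 13.8 FPKM with v3 wild type, against 18.0 and 14.7 FPKM in knockdown cells. The groups overlapped, and the log2 change was -0.05 with a 95% interval of -0.49 to 0.38. Against control siRNA cells TGFBR2 was called lower in wild-type cells (log2 change -1.36, standard error 0.20, limma adjusted p = 0.0314). It was the 1 member of 36 called there, beside 0.436% of all genes (0.302% lower), and that call was kept in 13 of 22 alternatives. Leaving out any 1 of the control siRNA, knockdown or wild-type libraries ended it. TGFBR1 (log2 change -0.86, limma adjusted p = 0.0764) and TGFBI (-0.82, 0.0588) were also below control siRNA cells without passing, and CYR61 (0.97, 0.0581), CTGF (0.70, 0.164) and OCLN (0.57, 0.152) were above them. With the replicate block 9 members were called, with adjusted p of 0.0117 for TGFBR1, 0.00775 for TGFBI, 0.00252 for CYR61, 0.0139 for CTGF, 0.0492 for OCLN and 0.00217 for COL5A1. The others were TGFBR2, ITGAV (log2 change -0.53) and ITGB1 (-0.31). MMP2 (-0.61) and the laminin chain gene LAMB3 (-0.58) passed in neither fit. All 15 mitochondrially encoded genes were above control siRNA cells in wild-type cells (median log2 change 0.81, 13 with an unadjusted p under 0.05 and 0 called by limma), and their part in these results was not tested. This comparison and the knockdown comparison share the control siRNA libraries.

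The S34F libraries were set against the wild-type libraries to ask what the mutation changes. None of the 36 tested members was called by limma, beside 1.85% of all genes, and 5 members had an unadjusted p under 0.05, against 15.9% of all genes. CTGF (ENSG00000118523, chr6:132269316-132272513), a matricellular protein, had 32.0 and 30.9 FPKM with v1 S34F and 26.6 and 31.8 FPKM with v3 S34F, against 15.5 and 24.0 FPKM with v1 wild type and 21.8 and 26.9 FPKM with v3 wild type. Within each isoform the S34F libraries were above the wild-type libraries except for v3 S34F replicate 2, which was just below v3 wild type replicate 1. The log2 change was 0.47 (95% interval 0.11 to 0.82, limma adjusted p = 0.192, and 0.0182 with the replicate block). The basement membrane collagen COL4A1 differed by -0.42 (adjusted p = 0.428, and 0.0491 with the block). Its neighbour COL4A2 differed by -0.33 and LAMB3 by 0.32, and neither passed in either fit. The cadherins differed by -0.52 (CDH1) and 0.42 (CDH2), KRT19 by 0.48 and ZEB2 by 0.48, with limma adjusted p between 0.669 and 0.831. The replicate spread of those 4 genes was wide, and none was called with the block.

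In 5 of the 36 members all 4 S34F libraries were above all 4 wild-type libraries, and in none were they all below. The share is 13.9%, beside 13.5% of all genes without overlap in either direction of which 6.89% were higher and 6.65% lower with S34F. The 5 were VIM, with S34F values between 614 and 709 FPKM and wild-type values between 552 and 607 FPKM, and ZEB1, ITGAV, TIMP2 and TJP1. On the log2 scale ZEB1 differed by 0.29, ITGAV by 0.30 and TIMP2 by 0.27, with TIMP2 having the lowest adjusted p of the 5 (limma, 0.166). The effect of S34F did not differ detectably between v3 and v1: 0 members and 0 genes were called in that interaction by limma, with 0 members and 0.71% of all genes at an unadjusted p under 0.05. The widest estimates of that difference were -0.42 for TGFB2 and -0.42 for CTGF on the log2 scale, and the 95% interval for CTGF was -1.14 to 0.30. ZEB2 (-0.37), OCLN (-0.35), COL5A1 (-0.31), CYR61 (-0.30), LAMB3 (0.25) and KRT19 (-0.23) came next. Between v3 and v1 overall 0 members and 0 genes were called, and 0 members and 2.19% of genes had an unadjusted p under 0.05. The widest differences were 0.24 for MMP2, 0.18 for PLAU, 0.17 for LAMB3 and 0.17 for KRT19, followed by CLDN1 (0.16), CYR61 (0.16), TGFBI (0.13) and EPCAM (0.12).

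S34F was also compared with the knockdown and with control siRNA cells, a choice made after the values were seen. Both comparisons reuse libraries of the comparisons above. Against knockdown cells 4 of 36 members rose, beside 8.94% of all genes called and 5.08% called higher. They were PLAU (log2 change 0.88, limma adjusted p = 0.0308), CTGF (0.79, 0.0342), TGFBI (0.62, 0.0413) and ITGA5 (0.47, 0.0384). All 4 of these calls were lost without either knockdown library, without v1 S34F replicate 2 or without v3 S34F replicate 2, and 2 were left without either v3 wild-type library. The block raised the count to 12, all higher, and only some of those added are named here. KRT19 (0.91), COL5A1 (0.88) and KRT7 (0.48) passed only with the block, at adjusted p of 0.00714, 0.00114 and 0.00185, whereas ZEB2 (0.81) and CDH1 (-0.53) passed in neither fit. ITGA5 had 16.1 and 16.9 FPKM with v1 S34F and 16.3 and 13.1 FPKM with v3 S34F, against 10.6 and 11.2 FPKM in knockdown cells. PLAU had 72.3 and 64.6 FPKM with v1 S34F and 101 and 62.4 FPKM with v3 S34F, all above the knockdown values.

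Against control siRNA cells 7 of 36 members were called in S34F cells, beside 7.81% of all genes (3.61% higher and 4.2% lower). Both receptors and TGFBI were lower, as was COL4A2, and CTGF, CYR61 and OCLN were higher. TGFBR2 had 15.9 and 12.6 FPKM with v1 S34F and 19.1 and 12.5 FPKM with v3 S34F, against 36.3 and 47.7 FPKM in control siRNA cells (log2 change -1.43, limma adjusted p = 0.0041). This call held in all 22 alternatives, with log2 changes between -1.65 and -1.24 and adjusted p between 0.000884 and 0.0318. TGFBR1 changed by -0.76 (limma adjusted p = 0.0304), TGFBI by -0.75 (0.0228) and COL4A2 by -0.78 (0.0371), the last of which was called in 9 of 22 alternatives. Mitochondrially encoded transcripts summed to between 42509 and 71317 FPKM in S34F cells, against 20080 and 40126 FPKM in the 2 control siRNA libraries. Their part in these calls was not tested.

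The 3 genes that rose are known for different roles: CTGF and CYR61 are secreted matricellular proteins and OCLN is a transmembrane protein of tight junctions. CYR61 (ENSG00000142871, chr1:86046444-86049645) had 86.0 and 91.1 FPKM with v1 S34F and 83.7 and 94.6 FPKM with v3 S34F, against 36.9 and 47.5 FPKM in control siRNA cells (log2 change 1.07, limma adjusted p = 0.0104). CTGF, with its 4 S34F values between 26.6 and 32.0 FPKM against 11.5 and 14.5 FPKM in control siRNA cells, rose by 1.17 (0.0086). OCLN (ENSG00000197822, chr5:68788119-68853931) had 21.8 and 19.0 FPKM with v1 S34F and 19.9 and 16.5 FPKM with v3 S34F, against 9.06 and 12.4 FPKM in control siRNA cells, and rose by 0.80 (0.0142). The S34F and control siRNA libraries did not overlap in any of these genes. Without control siRNA replicate 2, 1 of the 7 calls was left, without control siRNA replicate 1 there were 4, and without both replicate 2 libraries of S34F there were 3. With the block 12 members were called. Among those added were ZEB2 (log2 change 1.02, adjusted p = 0.349 without and 0.0326 with the block), COL5A1 (-0.87, 0.00128 with the block) and COL4A1 (-0.70, 0.0074). ZEB2 had 11.1 and 9.86 FPKM in the v1 S34F and v3 S34F replicate 2 libraries that stood apart, against 2.71 FPKM in control siRNA replicate 2. In replicate 1 it had 2.37 and 1.66 FPKM with v1 S34F and v3 S34F, against 1.24 FPKM in control siRNA cells.

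**Figure D2:**
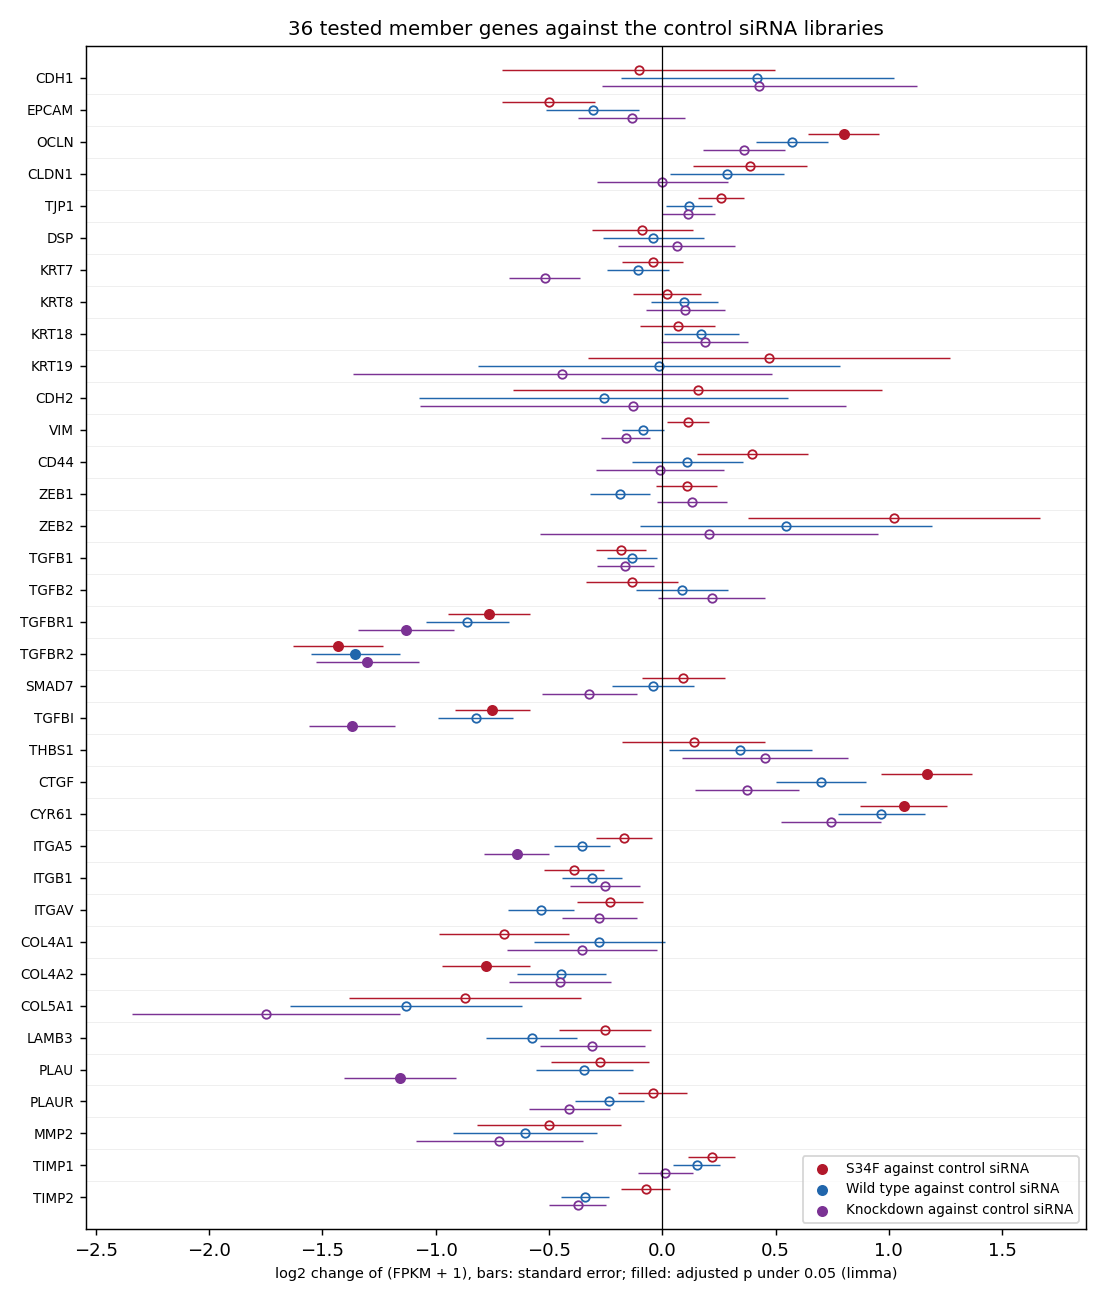
log2 change of (FPKM + 1) with its standard error for the 36 tested genes in S34F, wild-type and knockdown cells, each against the same 2 control siRNA libraries. Filled points passed an adjusted p under 0.05 in limma: 7 genes with S34F, 1 gene (TGFBR2) with wild type and 5 genes in the knockdown.

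Across the constructs, 6 genes separated the 10 libraries with siRNA against U2AF1 from the 4 without it. TGFBR1, TGFBR2 and TGFBI were lower in all 10, which is 8.33% of the tested members beside 2.94% of all genes. CTGF, CYR61 and OCLN were higher in all 10, again 8.33% beside 2.64% of all genes. In either direction 5.58% of all genes were separated in this way. TGFBR2 had a lowest, median and highest value of 12.5, 15.3 and 19.1 FPKM in the 10 libraries, against 31.7, 37.1 and 47.7 FPKM in the 4. For TGFBI the values were 176, 249 and 358 FPKM, against 388, 475 and 496 FPKM. For CYR61 they were 59.5, 86.1 and 98.7 FPKM, against 32.9, 38.8 and 47.5 FPKM. The siRNA was present in all 10, so an effect of that siRNA apart from U2AF1 and an effect of lowered endogenous U2AF1 cannot be told apart.

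The promoter of CTGF is shown because it carries the motif of the TEAD factors, the DNA-binding partners of YAP. The sequence is from RefSeq (symbol CCN2, GRCh38.p14, chr6:131951373-131951622, minus strand) and covers the 250 bases before the annotated start. Capitals mark each match to GGAATG, searched on both strands with its reverse complement CATTCC.
CTGF promoter: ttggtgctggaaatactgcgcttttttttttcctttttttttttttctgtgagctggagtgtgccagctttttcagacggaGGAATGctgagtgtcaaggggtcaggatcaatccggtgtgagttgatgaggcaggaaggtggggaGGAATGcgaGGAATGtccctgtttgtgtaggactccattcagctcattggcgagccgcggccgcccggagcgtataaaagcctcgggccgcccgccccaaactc
There were 3 matches, which begin at positions -169, -104 and -95 relative to the start. At least 1 match is found in 11.9% of 35116 promoter windows of the same length. A match describes the letters and is not evidence of binding. Of another 16 direct TGF-beta and YAP target genes, none was called in S34F against wild-type cells by limma without the replicate block, beside 1.85% of all genes. An unadjusted p under 0.05 was found for 3 of them, beside 15.9% of all genes. ANKRD1, a gene induced by YAP, rose by 2.50 on the log2 scale in S34F against control siRNA cells (limma adjusted p = 0.0041), and in the same list CCDC80 fell by 0.76 (0.0291), where 7.81% of all genes were called. ANKRD1 had 80.0 and 45.7 FPKM with v1 S34F and 64.5 and 33.5 FPKM with v3 S34F, against 11.9 and 6.06 FPKM in control siRNA cells, so that the groups did not overlap.

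Among the isoforms of these genes, 1 of the 76 tested was called in S34F against wild-type cells, a call kept in 10 of 18 alternatives. Usage is the percentage of a gene's summed FPKM that falls on 1 isoform, and 76 isoforms of 29 members were tested. ENST00000339082 of PLAUR (ENSG00000011422, chr19:44150247-44174699, GRCh37), the cell surface receptor of urokinase, was the isoform called in S34F against wild-type cells, beside 0.681% of all 41727 isoforms. It took 4.14% and 2.23% of PLAUR with v1 S34F and 5.34% and 5.45% with v3 S34F, against 15.4% and 18.0% with v1 wild type and 20.4% and 20.9% with v3 wild type. All 4 S34F libraries were below all others, including 21.8% and 16.6% in knockdown cells, 17.4% and 18.3% in control siRNA cells and 23.3% and 21.8% in untreated cells. The difference was -14.4 percentage points (standard error 2.05, limma adjusted p = 0.0241).

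This isoform ends in its own last exon. According to GENCODE release 29 (GRCh38, minus strand), both ENST00000339082 and the main isoform ENST00000340093 join the exon at chr19:43652225-43652371 to their last exon, which lies at chr19:43646095-43646548 in ENST00000339082 and at chr19:43648580-43649143 in ENST00000340093. In the main isoform the last exon encodes the signal for attachment to the membrane by a glycosylphosphatidylinositol anchor. The sequences across these junctions are printed to show where the isoforms part, with 40 bases of the shared exon in lower case and the first 40 bases of the last exon in capitals.
ENST00000339082: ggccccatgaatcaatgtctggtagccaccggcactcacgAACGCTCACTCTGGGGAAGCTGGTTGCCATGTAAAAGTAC
ENST00000340093: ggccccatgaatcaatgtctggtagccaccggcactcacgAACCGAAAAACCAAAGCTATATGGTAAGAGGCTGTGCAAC
The coding part of the last exon, with its stop codon, is 92 bases long in ENST00000339082 and 254 bases long in ENST00000340093.

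In absolute level ENST00000339082 had 0.846 and 0.634 FPKM with v1 S34F and 1.22 and 1.33 FPKM with v3 S34F, against 2.83 and 3.94 FPKM with v1 wild type and 3.98 and 4.97 FPKM with v3 wild type. The main isoform took 61.2% and 53.7% of PLAUR with v1 S34F and 54.8% and 59.7% with v3 S34F, against 50.2% and 53.5% with v1 wild type and 51.5% and 59.4% with v3 wild type. These ranges overlapped, and the summed PLAUR level differed by 0.19 on the log2 scale (limma adjusted p = 0.515). Another isoform in that sum, ENST00000599892, ranged between 0.00101% and 30.0% of PLAUR over the 14 libraries. Against knockdown cells the usage of ENST00000339082 was lower by a similar amount (-14.9 points, limma adjusted p = 0.0242, beside 2.1% of all isoforms called), and against control siRNA cells the difference was -13.6 points without passing (0.0712, beside 0.302% of all isoforms called).

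The size of the PLAUR difference stayed between -15.0 and -13.7 points in the alternatives on the percent scale, but the call held in 10 of 18. It was lost without any 1 of the 4 wild-type libraries, of the v3 S34F libraries or v1 S34F replicate 2, and without both S34F replicate 2 libraries, with adjusted p up to 0.193. No isoform of the members was called in the knockdown comparison, beside 0.129% of all isoforms, in wild-type against knockdown cells (0.273%) or in wild-type against control siRNA cells (0.00479%). Neither was any called between v3 and v1 in the effect of S34F, where 0 of all isoforms were called and 2 member isoforms had an unadjusted p under 0.05, beside 3.18%. In the 3 other comparisons 4, 6 and 7 member isoforms had an unadjusted p under 0.05, beside 10.3%, 10.8% and 6.33% of all isoforms. The isoform with the widest difference in S34F against wild-type cells was ENST00000356082 of the laminin chain gene LAMB3. It took 54.2% and 69.9% with v1 S34F and 59.2% and 52.8% with v3 S34F, against 81.0% and 74.2% with v1 wild type and 76.6% and 75.6% with v3 wild type (-17.8 points, limma adjusted p = 0.101). Its gene averaged 4.56 FPKM, and in the knockdown its usage was 53.9% and 60.6%. Next in size with S34F came ENST00000490733 of EPCAM (13.6 points), ENST00000261023 of ITGAV (-12.3) and ENST00000570283 of MMP2 (-12.0), with adjusted p of 0.465 to 0.703. After knockdown the widest were ENST00000455193 of LAMB3 (18.7 points), ENST00000293379 of ITGA5 (-16.4) and ENST00000599892 of PLAUR (-15.9). Wild type differed most from knockdown in the LAMB3 isoforms ENST00000356082 (19.6 points) and ENST00000455193 (-18.7) and in ENST00000552516 of TGFBR1 (-16.0), and from control siRNA in ENST00000405271 of EPCAM (14.3) and ENST00000424869 of ZEB1 (-13.9).

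**Figure D3:**
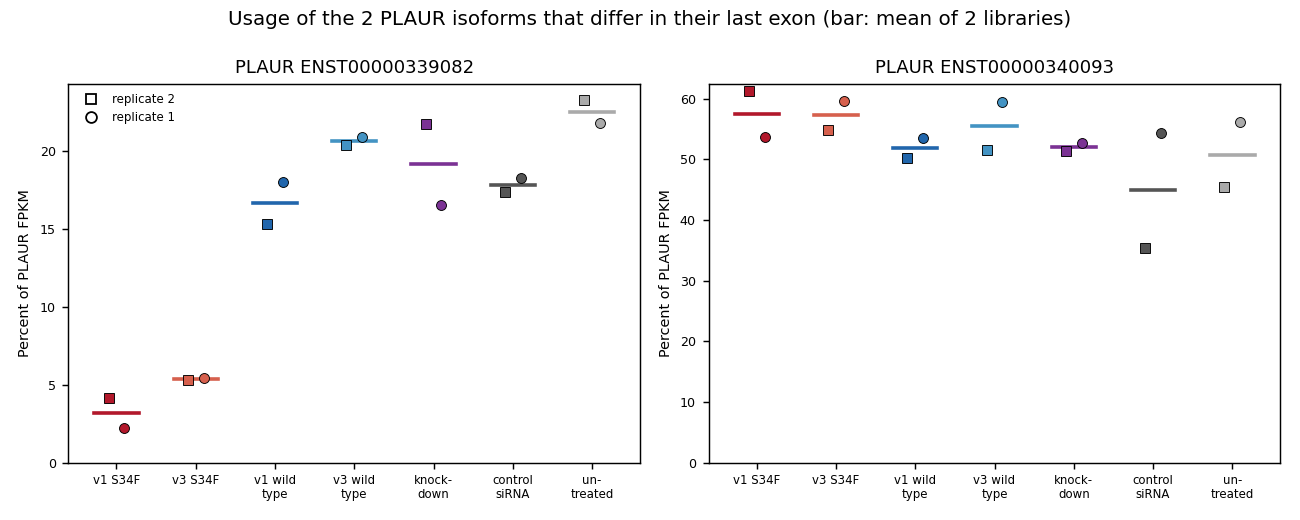
Usage of 2 PLAUR isoforms that differ in their last exon, as a percent of PLAUR FPKM (axes start at 0), in the 7 groups, with squares for replicate 2, circles for replicate 1 and a bar for the mean. ENST00000339082 lies between 2.23% and 5.45% in the 4 S34F libraries and between 15.4% and 23.3% in the 10 others, while ENST00000340093 overlaps between groups.

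CD44, a hyaluronan receptor whose variable exons are kept in epithelial cells with the help of ESRP proteins, was followed for its isoforms as well. The standard isoform ENST00000263398 took between 23.9% and 35.1% of CD44 in the 14 libraries. The 26 of 42 listed isoforms with an exon inside the variable region (GENCODE release 29, GRCh38, chr11, between 35190065 and 35214852) together took between 8.18% and 22.5%. Their share was 18.8% and 15.8% with v1 S34F and 22.5% and 17.6% with v3 S34F, against 15.6% and 12.7% with v1 wild type and 9.14% and 15.9% with v3 wild type. The S34F and wild-type ranges overlapped by a small margin. Untreated cells had 15.6% and 16.8%, the second inside the S34F range and the first just below it. Control siRNA cells had 8.18% and 11.9%, and knockdown cells 10.97% and 11.5%. Another 4 of the 42 isoforms were not matched to that annotation. Their share was highest in v1 S34F replicate 2 (6.12%) and v3 S34F replicate 1 (5.52%). The values therefore do not settle whether S34F alters this share.

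Introduction of the vector and control siRNA was compared with untreated cells as the background of the design. None of the 36 members and 0 of all genes were called by limma, with 7 members and 5.13% of all genes at an unadjusted p under 0.05. In 11 members both control siRNA values lay above both untreated values and in none below, which is 30.6% beside 12.8% of all genes. In either direction 29.3% of all genes did not overlap (16.5% lower). PLAUR had 23.5 and 25.8 FPKM in control siRNA cells, against 16.2 and 16.5 FPKM in untreated cells (log2 change 0.56, limma adjusted p = 0.927). The widest differences were in MMP2 (0.74), PLAU (0.62) and KRT19 (0.60), followed by PLAUR, LAMB3 (0.53), TGFB2 (0.52), COL5A1 (0.50) and COL4A1 (0.48). The 11 were COL4A1, COL4A2, ITGA5, ITGAV, LAMB3, MMP2, PLAU, PLAUR, TGFB1, TIMP2 and ZEB1, so for those genes the control siRNA level used above was itself above the untreated cells. PLAUR, at 16.3 and 20.5 FPKM in knockdown cells, and TIMP2, at 74.5 and 67.6 FPKM there against 71.4 and 76.0 FPKM in untreated cells, overlapped the untreated values. The mitochondrially encoded genes moved the opposite way, with a median log2 change of -0.90 over 15 genes, and their part in this was not tested.

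The widest differences in cadherins lay between the replicate series. Replicate 2 was compared with replicate 1 over the 7 groups, a comparison added after the values were seen. The labels do not say what the replicate number stands for. CDH1 (ENSG00000039068, chr16:68771128-68869451) had a lowest, median and highest value of 8.71, 13.98 and 17.8 FPKM in replicate 2, against 22.5, 32.0 and 34.8 FPKM in replicate 1. CDH2 (ENSG00000170558, chr18:25530930-25757410) had 22.9, 25.2 and 34.2 FPKM in replicate 2, against 5.88, 7.76 and 10.1 FPKM in replicate 1. The ratio of E-cadherin to N-cadherin FPKM was therefore between 0.256 and 0.693 in the 7 replicate 2 libraries and between 2.23 and 5.68 in the 7 replicate 1 libraries, without overlap, and it was lowest in the v3 S34F and v1 S34F replicate 2 libraries.

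In all, 17 of the 36 members were called between the series, 8 higher and 9 lower, beside 27.1% of all genes (15% higher and 12.1% lower). CDH2 rose by 1.62 on the log2 scale (limma adjusted p = 1.93e-05), KRT19 by 1.58 (3.24e-05), ZEB2 by 1.17 (0.0017) and COL5A1 by 1.01 (3.08e-05), and CDH1 fell by 1.15 (0.000263). KRT19, a keratin of simple epithelia, had 31.1, 51.0 and 76.8 FPKM as its lowest, median and highest value in replicate 2, against 10.2, 16.7 and 24.7 FPKM in replicate 1, so it differed in the same direction as CDH2 and in the opposite direction to CDH1. CD44 (0.45), THBS1 (0.49), TGFBI (0.24) and KRT7 (0.23) also rose. COL4A1 (-0.51), CLDN1 (-0.41), the desmosomal protein DSP (-0.36), CYR61 (-0.32), CTGF (-0.31), COL4A2 (-0.27), PLAUR (-0.22) and ITGB1 (-0.22) fell. The calls of TGFBI, COL4A2 and PLAUR held in only 8, 5 and 12 of 21 alternatives, whereas each other called member lost its call in at most 1. CDH1, CDH2 and KRT19 did not overlap between the series, 8.33% of the 36 beside 3.17% of all genes (1.94% higher and 1.23% lower). ZEB2 reached 11.1 and 9.86 FPKM in v1 S34F and v3 S34F replicate 2, against 2.36 to 6.06 FPKM in the 5 other replicate 2 libraries and 0.873 to 2.37 FPKM in replicate 1. Without both S34F replicate 2 libraries 12 members were called. Among 17 other mesenchymal genes 3 rose and 2 fell, led by the matrix proteins SPARC (log2 change 2.88) and FN1 (1.55), and among 22 other junction and keratin genes 4 rose and 6 fell, with the desmosomal cadherin DSC2 at -0.85. The fibroblast marker THY1 rose by 1.09, 2 of the 8 fibroblast markers reached a mean of 1 FPKM and DCN was listed at 0 in every library, and the part of such cells in the result was not tested.

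**Figure D4:**
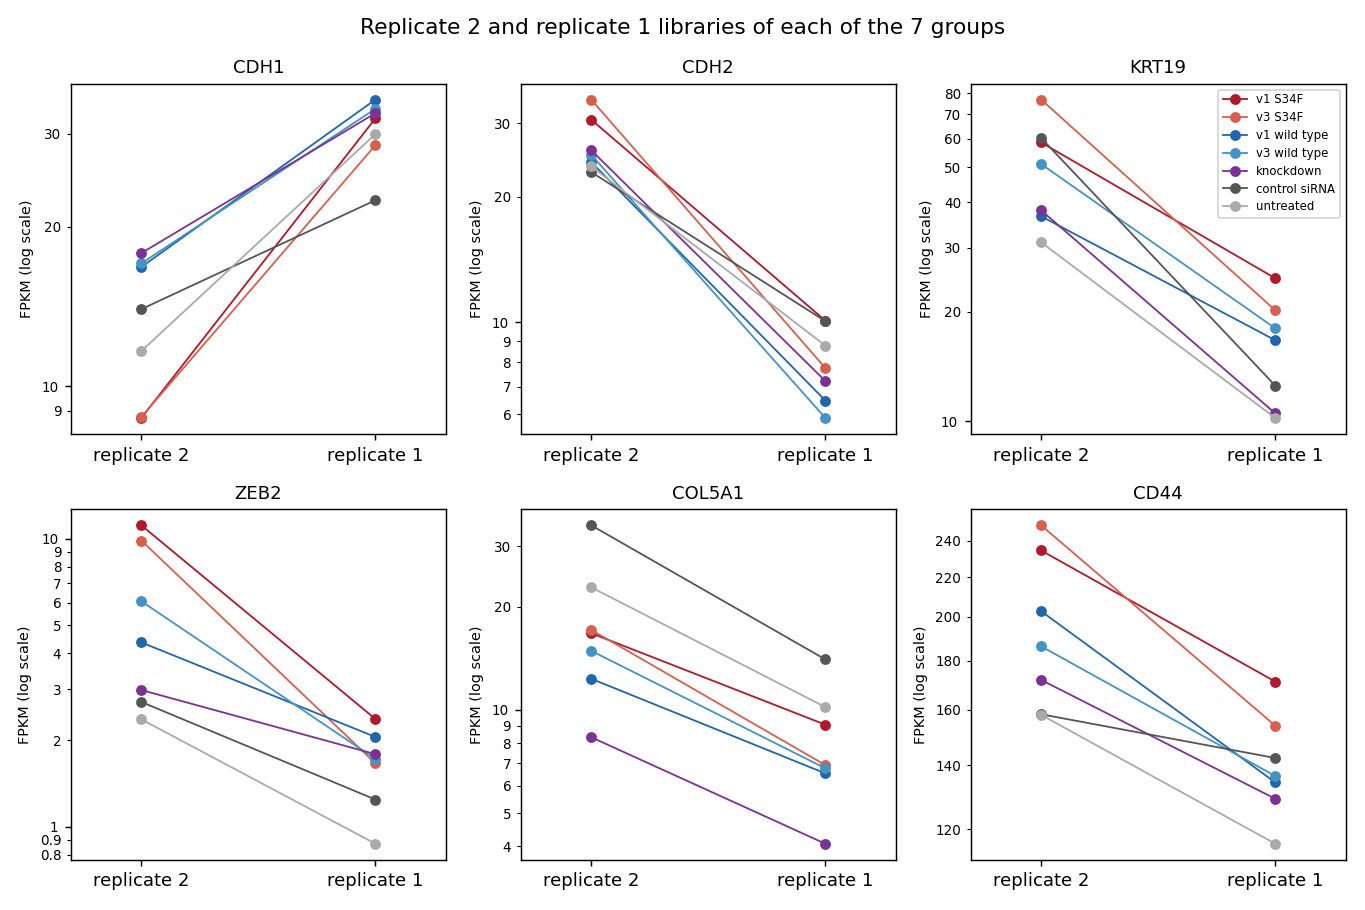
FPKM (log axes) of 6 genes in the replicate 2 and replicate 1 libraries of the 7 groups, with a line joining the 2 libraries of a group. CDH1 is lower, and CDH2, KRT19, ZEB2, COL5A1 and CD44 are higher, in replicate 2 than in replicate 1 of every group.

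Other genes of the same pathways were followed in 7 lists, and the comparisons of treatments below were fitted without the replicate block. In knockdown against control siRNA cells, where 2.85% of all genes were called and 2.06% were called lower, 3 of 11 tested genes for TGF-beta ligands, receptors and latency fell and none rose: the latent TGF-beta binding proteins LTBP2 (log2 change -1.33) and LTBP4 (-1.18) and the protease FURIN (-0.75), which matures the TGF-beta precursor. Of 20 other integrins, collagens and laminins 5 fell and none rose, among them ITGA3 (-1.26), ITGA2 (-1.25), ITGB4 (-1.24) and COL6A2 (-1.31). In addition 1 gene fell in each of 4 lists: PMEPA1 (-1.26), a feedback inhibitor of SMAD signalling, among 15 SMADs and their regulators, the receptor tyrosine kinase AXL (-0.89) among 16 direct target genes, CLDN2 (-1.12) among 22 epithelial junction and keratin genes, and FSTL1 (-1.25) among 17 mesenchymal genes. None of 10 other matrix proteases and inhibitors was called, and 3 of them had an unadjusted p under 0.05, beside 18.9% of all genes. The limma adjusted p of the called genes lay between 0.0017 and 0.0484.

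With wild-type U2AF1, LTBP2 (0.78), AXL (0.75) and ITGA3 (1.01) were higher than in knockdown cells, beside 1.43% of all genes called. ITGA3, the alpha chain of a laminin receptor, had 132 and 133 FPKM with v1 wild type and 147 and 140 FPKM with v3 wild type, against 63.6 and 72.8 FPKM in knockdown cells and 181 and 150 FPKM in control siRNA cells. LTBP4 (-0.70) and FSTL1 (-1.10) were below control siRNA cells, beside 0.436% of all genes called. FSTL1, a secreted glycoprotein, had 33.6 and 37.2 FPKM with v1 wild type and 37.9 and 32.2 FPKM with v3 wild type, against 83.1 and 70.5 FPKM in control siRNA cells, and the knockdown had 32.1 and 30.9 FPKM. The 4 wild-type values lay just above the knockdown values and well below those of control siRNA cells. In S34F against wild-type cells none of the genes in these 7 lists was called by limma without the replicate block. The lowest adjusted p belonged to the ubiquitin ligase SMURF2 (log2 change 0.52, 0.0670), the keratin KRT81 (-0.68, 0.0763) and TGFB3 (0.67, 0.114), and each list of 10 to 22 tested genes held 0 to 5 genes with an unadjusted p under 0.05, beside 15.9% of all genes. 

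Against knockdown cells, where 8.94% of all genes were called, 3 of 11 genes of the ligand, receptor and latency list rose with S34F, LTBP2 (1.20), LTBP4 (0.71) and FURIN (0.64), and LTBP1 fell (-1.20). In the same comparison ITGA3 (1.28), ITGB4 (1.11) and ITGA2 (1.10) rose among the integrins, collagens and laminins, as did AXL (1.03), ANKRD1 (1.80), SMURF2 (0.78), CLDN4 (0.63), MMP7 (0.86), ADAM17 (0.47) and RECK (1.03), while CCDC80 (-0.71), KRT81 (-0.95) and PMP22 (-0.59) fell. Against control siRNA cells, where 7.81% of all genes were called, 3 of 11 genes of the ligand, receptor and latency list fell with S34F, LTBP1 (-1.39), LTBP4 (-0.47) and the BMP receptor BMPR2 (-0.55). PMEPA1 (-1.05), ZFYVE9 (-0.52), CLDN2 (-1.68), KRT81 (-1.29), TNS1 (-0.98), FSTL1 (-1.11), ITGB5 (-1.05) and TIMP4 (-0.94) fell in the other lists, and SMURF2 (0.83), PKP2 (1.08) and MMP7 (0.72) rose. The leukocyte list held 1 gene called in S34F against control siRNA cells, CD68 (log2 change 1.17), a lysosomal protein, while the other 5 genes were at most 2.58 FPKM, and the summed list ranged over 41.2 to 62.4 FPKM in S34F cells and 16.0 to 31.7 FPKM in control siRNA cells.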

How the data were processed

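RNA of 14 A549 libraries in 7 labelled groups of 2 was measured. Trimming with Trimmomatic 0.30 and alignment with TopHat2 2.0.12 to GRCh37 are named in the submitters' processing notes. For the quantifier, the annotation and strandedness, nothing is given in the sources used here. The authors' deposited tables hold FPKM, per the file headers, for 195553 isoforms, with no count of reads, so absolute depth is unknown. The deposited coverage (signal) per isoform, divided by FPKM, gave the relative depth. Gene FPKM was the sum over isoforms. Genes with a mean of at least 1 FPKM, less 11 with an estimate not marked OK, went into limma 3.58.1 (R 4.3.3, intensity trend) on log2(FPKM + 1), which understates changes of low genes, with 1 mean per group (7 residual and 3.92 prior degrees of freedom). Usage of isoforms at a mean of 5 to 95 percent was tested in the same way, as a difference of percentages. A Benjamini-Hochberg adjusted p under 0.05 was called. The fit was run on simulated data with independent libraries and no difference between the replicate series. That run therefore does not cover the difference between the series in these data.

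The 40 genes and all lists were chosen with earlier results of these data known. Named are the called members, then those with the largest change up to 8 per comparison, called isoforms and up to 5 more, and called genes of the lists, of which 1 is not reported here. Some genes were described in more detail after their values were seen. The labels number the replicates alike in every group. Deviations from the group means correlated between same-numbered libraries in all 21 pairs of groups (0.16 to 0.571), so the numbers were taken to pair the libraries. Fits with the replicate as a block are given for the members where they change a call. For S34F against knockdown and S34F against control siRNA, only some of those members are named, beside the count. Genes of the lists were compared between treatments without the block only. Alternatives were other scalings, pseudocounts and filters, no trend, the block, and leaving out libraries.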

Additional observations from a re-analysis of the deposited data

How the results depend on the processing

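Among the 36 tested members, counts in the comparisons of control siRNA with untreated cells, v3 with v1, and the S34F effect in v3 with that in v1 stayed at 0 in every alternative run. With the replicate block the count was 10 in the knockdown against control siRNA (5 without it), 4 in wild type against knockdown (0 without it), 9 in wild type against control siRNA (1), 2 in S34F against wild type (0), 12 in S34F against knockdown (4) and 12 in S34F against control siRNA (7). The block changed no isoform count. Without the filter on low values these counts were 2 in the knockdown, 0 in wild type against control siRNA, 0 in S34F against knockdown and 4 in S34F against control siRNA; the cause was not tested. In wild type against control siRNA, quantile normalization gave 2 and a mean of at least 5 FPKM gave 3. Without both S34F replicate 2 libraries the count was 0 in S34F against knockdown, 3 in S34F against control siRNA and 0 for the PLAUR isoform. Leaving out 1 library gave 0 to 5 members in the knockdown, 0 to 1 in wild type against control siRNA, 0 to 4 in S34F against knockdown, 1 to 7 in S34F against control siRNA, 14 to 20 in replicate 2 against replicate 1 and 0 to 1 for the S34F isoform count. A group left with 1 library was assumed to vary like the others. Of 748 recomputed values of called members, 593 stayed called, 155 lost the call and 0 changed sign. In replicate 2 against replicate 1, 315 of 356 stayed called, and the share was lower in every comparison of treatments. It was 127 of 154 in S34F against control siRNA, 76 of 110 in the knockdown and 52 of 88 in S34F against knockdown. In wild type against control siRNA it was 13 of 22, and for the PLAUR isoform 10 of 18. No scaling moved the median of all genes by 0.1 on the log2 scale or turned a called member. No alternative was left out. With 2 libraries per group, small changes cannot be detected.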
